A study of Mus musculus with 6 samples.

Results

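Thyroid hormone synthesis genes were followed library by library in mouse thyroid tumors driven by mutant YAP, with or without mutant Braf. The 9 genes, taken by symbol from a table of 35027 genes, were Slc5a5, Slc26a4, Tg, Duox1, Duox2, Duoxa2, Iyd, Dio1 and Tshr, and all 9 were listed. RNA-seq was performed on tumor cells sorted for Kate, a fluorescent protein that emits red light. The YAP genotype combined a Cre transgene that drives recombination in thyroid follicular cells, a Rosa26 cassette (RIK) that after recombination expresses the reverse tetracycline transactivator and Kate, and the doxycycline (dox)-inducible transgene tetO-YAPS127A, which encodes a YAP mutant retained in the nucleus. BrafYAP mice carried all of these alleles and LSL-BrafV600E, in which Cre switches on BrafV600E from the endogenous gene. Both groups were of mixed strain background and had received dox chow from 4 weeks of age by GEO's labels. Both groups therefore carried the YAP transgene, and no library of thyroid without it was analysed here. The 3 libraries of each group, from about 20000 sorted cells apiece, are named by their replicate numbers, which are 1, 2 and 3 for YAP but 1, 2 and 6 for BrafYAP. By the labels 3 tumors were pooled for a YAP library and 1 tumor was used for a BrafYAP library, and effects of pooling and of genotype cannot be told apart.

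Thyroid hormone is made on thyroglobulin (Tg), a very large protein that follicular cells secrete into the follicle lumen. Iodide is pumped into the cell from the blood by the sodium-iodide symporter, passes into the lumen, and is bound to tyrosines of thyroglobulin with hydrogen peroxide made by dual oxidases. After thyroglobulin is taken up and digested, iodide is recovered from unused iodotyrosines and reused. Thyrotropin (TSH), acting through its receptor on the follicular cell, stimulates most of these steps. Reduced expression of these genes is well known in thyroid cancers with mutant BRAF, and the comparison asks what mutant Braf adds to tumors that already express mutant YAP.

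Levels within a gene are given as scaled reads, which are read numbers estimated from the deposited values and kept on the authors' scaling between libraries. Libraries held 26.2 to 36.9 M estimated reads, and 1 estimated read was worth 0.785 to 1.22 scaled reads. BrafYAP replicate 6 stood apart, with a correlation of its log2 levels with the other libraries of 0.732 to 0.836, whereas each other library reached 0.931 or more with at least 1 library. The synthesis genes are therefore given with and without it, and gene lists where leaving it out altered a count or a sign. The genotype could not be checked from these reads, which do not separate transgene or mutant allele from the normal genes. Yap1 had 783, 781 and 907 scaled reads in YAP and 1368, 1466 and 264 in BrafYAP, and Braf had 189 to 292 in YAP and 148 to 344 in BrafYAP.

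The main pattern was that 6 of the 9 genes (Slc5a5, Slc26a4, Tg, Duoxa2, Dio1 and Tshr) had their highest level of all libraries in BrafYAP replicate 6, whereas the other BrafYAP libraries lay low for most of the pathway. Of the 7 genes that could be tested 5 peaked in that library, as did 23.8% of all tested genes. Duoxa2, 1 of these 5, reached the minimum mean for testing only through that library, so its place in this count was fixed beforehand. In 6 genes (Slc5a5, Tg, Duoxa2, Iyd, Dio1 and Tshr), BrafYAP replicates 1 and 2 were both below the other 4 libraries, an order found in 11.4% of all tested genes. For Duoxa2 and Slc5a5 this order rests on differences of a few reads. By contrast, Iyd and Duox1 were lower in each BrafYAP library than in every YAP library. No gene of the 9 passed the test with all 6 libraries, and 1, Tshr, passed it when BrafYAP replicate 6 was left out.

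**Figure D1:**
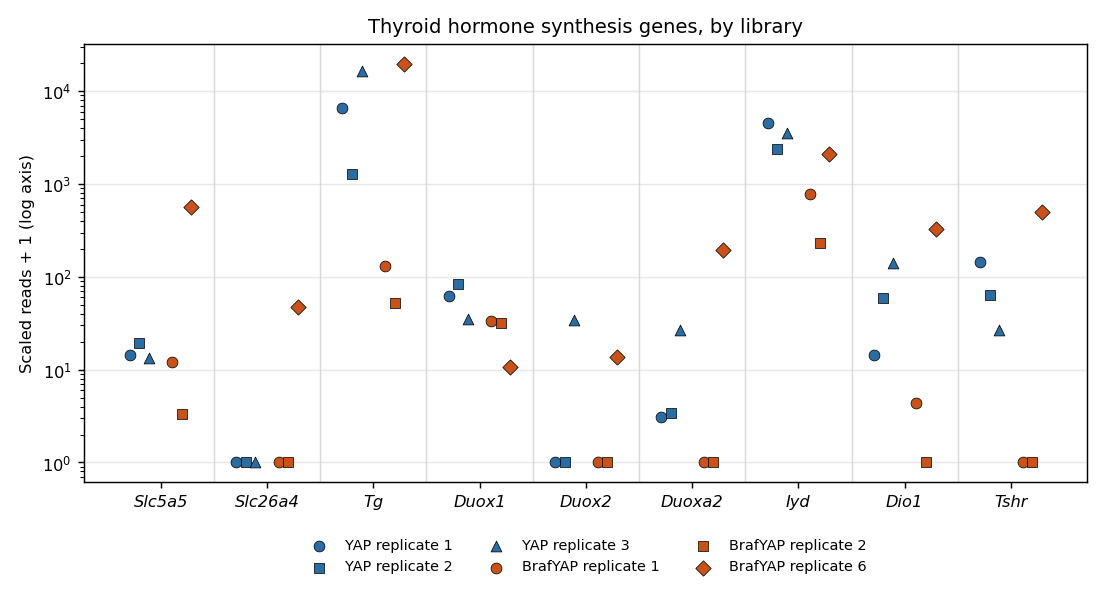
Scaled reads plus 1 (log axis) of the 9 thyroid hormone synthesis genes, 1 symbol per library, with YAP in blue and BrafYAP in orange. Symbols at 1 stand for 0 reads. BrafYAP replicate 6 (diamonds) is at the top for 6 genes, and BrafYAP replicates 1 and 2 are at or near 0 for Tshr, Duoxa2 and Dio1.

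Promoters were read for 3 genes chosen after their values were seen, Slc5a5 (at 38.7 times the YAP mean in BrafYAP replicate 6), Duoxa2 (which starts next to Duox2) and Iyd (the lowest p-value). RefSeq promoters (GRCm38.p6) were matched for 7 of the 9 genes, with Tg and Tshr unmatched. The 250 bases before each RefSeq start were searched on both strands for TATAAA, the TATA box (in 12.4% of 32851 promoters), CTCAAG, a core of NKX2-1 sites (13.3%), and GGAATG, the core bound by TEAD, the DNA-binding partner of YAP (12.6%). A match is a description of the letters and does not show binding. The stretches below are written 5′ to 3′ on the strand of the gene, and capitals mark matches. Slc5a5 (chr8:70892758-70893007, minus strand) held 0 matches, Duoxa2 (chr2:122298650-122298899, plus strand) held TATAAA 30 bases before its start, and Iyd (chr10:3540024-3540239, plus strand) held CATTCC, which is GGAATG on the other strand, 52 bases before its RefSeq start.
Slc5a5: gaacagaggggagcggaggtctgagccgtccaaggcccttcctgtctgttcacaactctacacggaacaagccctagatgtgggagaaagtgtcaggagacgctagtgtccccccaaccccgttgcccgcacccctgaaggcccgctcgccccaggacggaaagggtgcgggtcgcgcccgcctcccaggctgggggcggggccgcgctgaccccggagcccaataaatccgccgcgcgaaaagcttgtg
Duoxa2: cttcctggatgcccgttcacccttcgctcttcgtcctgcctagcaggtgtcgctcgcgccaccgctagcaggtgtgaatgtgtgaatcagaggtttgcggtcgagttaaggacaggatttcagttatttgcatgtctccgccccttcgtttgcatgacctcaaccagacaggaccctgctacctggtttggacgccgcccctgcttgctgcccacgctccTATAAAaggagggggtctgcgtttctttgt
Iyd: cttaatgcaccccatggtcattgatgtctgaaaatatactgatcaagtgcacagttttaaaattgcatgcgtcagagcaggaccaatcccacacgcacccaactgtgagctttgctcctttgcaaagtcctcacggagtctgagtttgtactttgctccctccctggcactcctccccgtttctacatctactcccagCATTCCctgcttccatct
The Iyd stretch is 216 bases long because it ends at the GENCODE start of the gene, and a TATAAA 29 bases before the RefSeq start lies beyond that end. Among the genes not printed, Slc26a4 held TATAAA at 31 and CTCAAG at 152 bases before its start, and Duox1 and Dio1 held 0 matches. Duox2 held CTCAAG at 106 bases before its RefSeq start (122298227). That match lies inside the gene by GENCODE, which puts the start at 122298449.

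Among the genes of iodide transport, Slc5a5 (chr8:70882889-70892757, minus strand, mm10) encodes the sodium-iodide symporter, which brings iodide into the follicular cell. Its scaled reads were 13.4, 18.3 and 12.4 in YAP replicates 1, 2 and 3, and 11.1, 2.35 and 568.3 in BrafYAP replicates 1, 2 and 6. Expression was thus low and even among YAP libraries and high in BrafYAP replicate 6, where it was 38.7 times the YAP mean. BrafYAP replicates 1 and 2 lay below the YAP libraries, but replicate 1 by few reads (10.0 estimated reads, against 12.0 in YAP replicate 3). Means were 14.7 ± 3.21 in YAP and 193.9 ± 324 in BrafYAP (SD, n = 3 each), and the groups overlapped. By limma on log2(scaled reads + 1), the difference, BrafYAP minus YAP here and throughout, was 0.88 (SE 1.73, 95% interval -3.19 to 4.95, adjusted p = 0.797), and the sign turned without BrafYAP replicate 6, to -1.28 (SE 0.80, adjusted p = 0.394). Adjusted p-values here and below are over all genes tested.

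Slc26a4 (chr12:31519827-31559969, minus strand) encodes pendrin, an anion exchanger that passes iodide to the lumen. It had 0 reads in 5 libraries and 46.2 scaled reads (52.0 estimated reads) in BrafYAP replicate 6. A count of 0 allows up to 3 estimated reads per library, which is 2.35 to 3.67 scaled reads in those 5 libraries. With a mean of 7.70 scaled reads it was under the minimum of 10 and was not tested.

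Tg (chr15:66670753-66850721, plus strand), the gene of the hormone scaffold, was among the most variable of these genes between libraries of one genotype. Scaled reads were 6657, 1279 and 16677 in YAP replicates 1, 2 and 3, and 129, 51.8 and 19640 in BrafYAP replicates 1, 2 and 6. The levels spanned 13.0-fold within YAP and 379-fold within BrafYAP. By the labels the former is a spread between pools of 3 tumors and the latter between single tumors, so the spreads are not alike. BrafYAP replicate 6 exceeded the highest YAP library by 1.18 times, while the lowest YAP library was still 9.95 times the higher of BrafYAP replicates 1 and 2. Means were 8204 ± 7814 and 6607 ± 11287 (SD, n = 3 each), and the groups overlapped. The log2 difference by limma was -3.35 (SE 2.14, 95% interval -8.38 to 1.69, adjusted p = 0.411). Without BrafYAP replicate 6 it was -5.98 (SE 1.03, 95% interval -8.45 to -3.51, unadjusted p = 0.00082), with an adjusted p of 0.0560 that still missed the threshold of 0.05.

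Other annotated genes lie over Tg. Sla, on the other strand within the span of Tg, shares 0 exonic bases with it and had 321 to 3651 scaled reads. The antisense gene Gm17140 shares 112 exonic bases with Tg and had at most 5.34 scaled reads. Because no strand was stated for the counting, reads in shared stretches cannot be assigned to a strand.

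For the supply of hydrogen peroxide, the 4 genes of the dual oxidases and their maturation factors lie side by side on chromosome 2. Duox1 (chr2:122315672-122347972, plus strand), a dual oxidase, had 61.7, 81.9 and 34.0 scaled reads in YAP replicates 1, 2 and 3, and 32.1, 30.6 and 9.77 in BrafYAP replicates 1, 2 and 6. It departed from the rest of the pathway in that BrafYAP replicate 6 was the lowest library. The groups did not overlap, although YAP replicate 3 was only 1.06 times the highest BrafYAP library, and means were 59.2 ± 24.1 and 24.2 ± 12.5 (SD, n = 3 each). The log2 difference by limma was -1.34 (SE 0.65, 95% interval -2.85 to 0.18, adjusted p = 0.293), and -0.81 (adjusted p = 0.406) without BrafYAP replicate 6. The exact permutation test of the means, two-sided, gave p = 0.1, which is the smallest that 3 libraries against 3 allow.

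Duox2 (chr2:122279247-122298449, minus strand) encodes the dual oxidase regarded as the main one of hormone synthesis. It was at 0 in 4 libraries and had 33.5 scaled reads in YAP replicate 3 and 12.6 in BrafYAP replicate 6. These correspond to 32.5 and 14.2 estimated reads. Such values are not whole numbers, as the quantification can divide reads between genes, and the reads of Duox2 are uncertain to that extent. Estimated reads of Duox1 were close to whole numbers in every library. With a mean of 7.68 scaled reads Duox2 was not tested.

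Duoxa2 (chr2:122298900-122302885, plus strand), the maturation factor that brings DUOX2 to the cell surface, starts 450 bases from the GENCODE start of Duox2 on the other strand. Scaled reads were 2.07, 2.45 and 25.7 in YAP replicates 1, 2 and 3, and 0, 0 and 194.3 in BrafYAP replicates 1, 2 and 6. The same pair of libraries, YAP replicate 3 and BrafYAP replicate 6, thus held nearly all reads of both divergent genes, though Duox2 was higher in the former and Duoxa2 in the latter, at 7.55 times the highest YAP library. The log2 difference by limma was -0.18 (SE 2.17, adjusted p = 0.971), and without BrafYAP replicate 6 its mean was under the minimum and was not tested. Duoxa2 shares 682 exonic bases with Duoxa1 on the other strand, and reads in them cannot be told apart. Duoxa1, the maturation factor of DUOX1, had 53.4, 66.0 and 34.0 scaled reads in YAP and 11.1, 32.2 and 23.3 in BrafYAP, without overlap (log2 difference -1.24, SE 0.58, adjusted p = 0.285 by limma).

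Of the genes of iodide recovery and deiodination, Iyd (chr10:3540240-3554877, plus strand) encodes iodotyrosine deiodinase, which frees iodide from unused iodotyrosines. Scaled reads were 4537, 2408 and 3582 in YAP replicates 1, 2 and 3, and 778, 233 and 2098 in BrafYAP replicates 1, 2 and 6. Every BrafYAP library lay below every YAP library, but narrowly for BrafYAP replicate 6, which had 0.871 times the level of the lowest YAP library. Means were 3509 ± 1066 and 1036 ± 959 (SD, n = 3 each). By limma the log2 difference was -2.23 (SE 0.75, 95% interval -3.98 to -0.47, unadjusted p = 0.0197), which missed the threshold after adjustment (adjusted p = 0.171). Without BrafYAP replicate 6 it was -2.99 (SE 0.56, adjusted p = 0.0639). The exact permutation test of the means gave p = 0.1, again the smallest possible.

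Dio1 (chr4:107291465-107307169, minus strand) encodes type 1 deiodinase, which converts thyroxine to triiodothyronine. Scaled reads were 13.4, 57.5 and 139.0 in YAP replicates 1, 2 and 3, and 3.32, 0 and 322.3 in BrafYAP replicates 1, 2 and 6. As for Tg, YAP replicate 3 was the highest YAP library and BrafYAP replicate 6 the highest of all, at 2.32 times that level. Means were 70.0 ± 63.8 and 108.6 ± 185 (SD, n = 3 each). The log2 difference by limma was -2.13 (SE 2.05, adjusted p = 0.580), and -4.56 (SE 1.15, unadjusted p = 0.0060, adjusted p = 0.108) without BrafYAP replicate 6.

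Tshr (chr12:91384563-91549808, plus strand) encodes the receptor through which TSH acts on the follicular cell. Scaled reads were 143.9, 62.4 and 25.7 in YAP replicates 1, 2 and 3, and 0, 0 and 491.9 in BrafYAP replicates 1, 2 and 6. The receptor was thus detected in all YAP libraries and in 1 BrafYAP library, where it was 3.42 times the highest YAP library. Against the limit that a count of 0 allows (3 estimated reads per library), the YAP mean of 77.3 ± 60.5 (SD, n = 3) was at least 23.3-fold higher than BrafYAP replicate 1 and at least 32.8-fold higher than BrafYAP replicate 2. By limma the log2 difference was -2.99 (SE 2.33, adjusted p = 0.492) with all libraries. Without BrafYAP replicate 6 it was -5.97 (SE 0.87, adjusted p = 0.0440), a value that depends on the pseudocount because both remaining BrafYAP libraries are at 0. A pseudogene within the span of Tshr, Gm18827, shares 0 exonic bases with it and had at most 2.22 scaled reads.

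**Figure D2:**
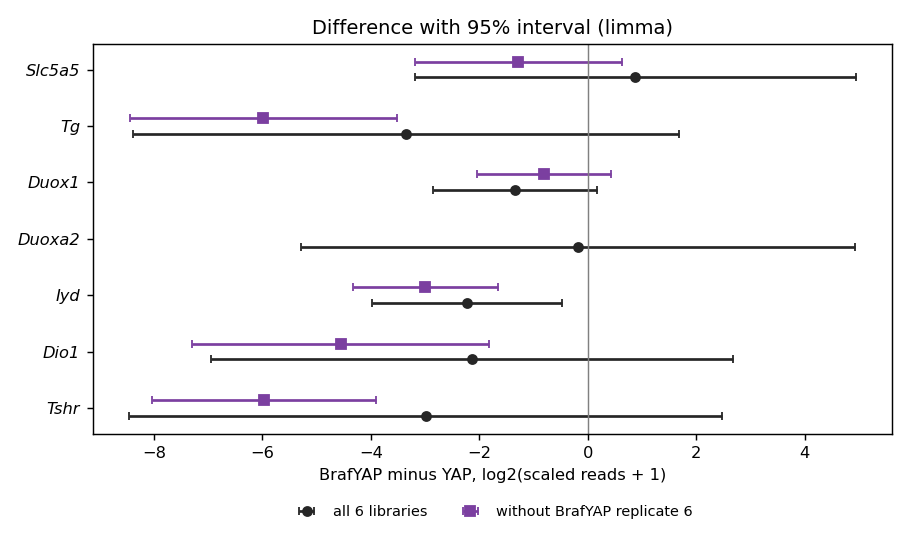
Difference between BrafYAP and YAP in log2(scaled reads + 1) for the 7 genes tested, with 95% intervals from limma, from all 6 libraries (black circles) and without BrafYAP replicate 6 (purple squares). Of the intervals from all libraries, that of Iyd alone lies below 0 (-3.98 to -0.47). For Slc5a5, Tg, Dio1 and Tshr leaving out the 1 library moves the difference down by more than 2 log2 units.

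Counted over the 7 genes tested, 0 passed an adjusted p of 0.05, as did 0 of all 16834 genes tested (0%), of which 20.2% had an unadjusted p under 0.05 in either direction. Voom on the estimated reads also gave 0 of the 7 and 0 of all genes. At an unadjusted p under 0.05, 1 gene (Iyd) was lower in BrafYAP and 0 were higher, where 10.5% of all tested genes were lower and 9.68% higher. The groups did not overlap for 2 genes (Duox1 and Iyd), both lower in BrafYAP, where 17.1% of all tested genes were lower without overlap. The log2 difference was negative for 6 genes and positive for 1 (Slc5a5), but Duoxa2 turned to 0.15 under quantile normalization. The median of the 7 was -2.13, beside a median of -0.12 over all tested genes. Median-ratio rescaling put the latter at 0.01 and that of the 7 genes at -2.01, so that scaling moved both alike.

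Without BrafYAP replicate 6, 6 of the genes could be tested. Of these 1 (Tshr) passed an adjusted p of 0.05, where 0.856% of 16590 genes did. At an unadjusted p under 0.05, 4 genes (Tg, Iyd, Dio1 and Tshr) were lower and 0 higher, where 11.5% of all genes were lower and 9.42% higher. All 6 had negative differences and no overlap between groups, where 24.8% of all genes were lower and 19% higher without overlap, and their median was -3.78 beside -0.09 over all genes. These counts are a description, since leaving out the library with the highest levels sets their direction in part, and a gene reached the minimum mean more readily where some library was high. With all libraries but with array weights, which gave BrafYAP replicate 6 the least weight, 5 genes (Tg, Duoxa2, Iyd, Dio1 and Tshr) passed an adjusted p of 0.05, where 27.6% of all genes did. Duoxa2 could be tested there only because of its level in BrafYAP replicate 6. In bulk samples such as these, fewer cells of a type and less RNA per cell cannot be told apart.

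Compared per exonic length (exonic TPM, recomputed from the estimated reads with the exonic length in place of the span), the genes differed widely in level. In YAP the order was Iyd (188.0 ± 59.3), Tg (82.2 ± 80.7), Dio1 (3.14 ± 2.97), Tshr (1.10 ± 0.86), Duox1 (0.96 ± 0.36), Duoxa2 (0.57 ± 0.78), Slc5a5 (0.43 ± 0.08), Duox2 (0.15 ± 0.26) and Slc26a4 (0, with 0 reads in each library), all means with SD over n = 3. Neighbors in this order overlapped over the libraries with the exception of Tg and Dio1, and Iyd and Tg were both above the other 7 genes in every YAP library. Although their ranges over the YAP libraries overlapped, Iyd was above Tg within each of them. The values were 240.2 against 64.4 in replicate 1, 123.4 against 12.0 in replicate 2 and 200.2 against 170.3 in replicate 3. The iodide pump and Duox2 were among the lowest.

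In BrafYAP the exonic TPM were Tg 65.9 ± 112.6, Iyd 56.8 ± 52.2, Slc5a5 5.87 ± 9.81, Dio1 4.88 ± 8.33, Duoxa2 3.61 ± 6.24, Tshr 2.42 ± 4.19, Slc26a4 0.44 ± 0.76, Duox1 0.41 ± 0.22 and Duox2 0.055 ± 0.095 (SD, n = 3). Apart from Iyd and Duox1, each SD exceeded its mean, since BrafYAP replicate 6 supplied most of the level, and every pair of neighbors overlapped. Within BrafYAP replicates 1 and 2 Iyd was the highest of the 9 genes, at 42.7 and 13.1, and Tg had 1.29 and 0.532. Among all genes with reads, Tg ranked 2135, 7009 and 1013 in YAP replicates 1, 2 and 3, and 13540, 15709 and 842 in BrafYAP replicates 1, 2 and 6.

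**Figure D3:**
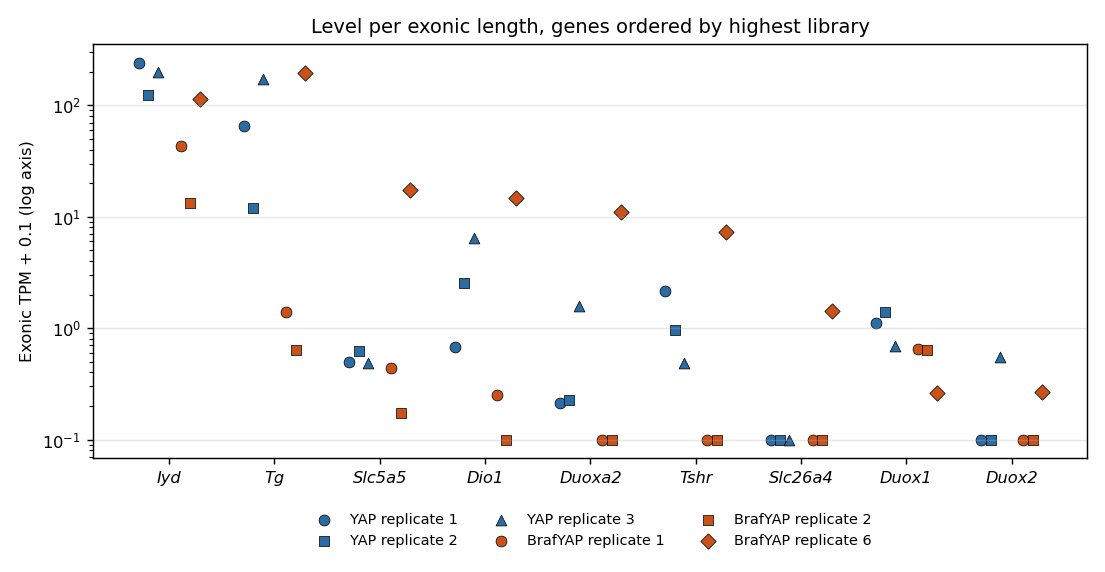
Exonic TPM plus 0.1 (log axis) of the 9 genes, 1 symbol per library, ordered by the level in their highest library. Iyd and Tg stand above the other genes in the YAP libraries (blue), while in BrafYAP replicate 6 (orange diamonds) Slc5a5, Dio1, Duoxa2 and Tshr also reach 17.2, 14.5, 10.8 and 7.25.

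Within BrafYAP, 8 of the 9 genes, all but Duox1, were highest in replicate 6, whereas the YAP libraries had no common order. Among the latter, Tg, Dio1, Duox2 and Duoxa2 were highest in replicate 3, Tshr and Iyd in replicate 1, and Slc5a5 and Duox1 in replicate 2. Tshr ran from 143.9 scaled reads in replicate 1 down to 25.7 in replicate 3, whereas Dio1 ran from 13.4 up to 139.0 in the same libraries. The number of the 9 genes at 0 reads was 2, 2 and 1 in YAP replicates 1, 2 and 3, and 4, 5 and 0 in BrafYAP replicates 1, 2 and 6. The genes whose levels over the 6 libraries were most like the mean pattern of the 7 tested genes, out of 12119 protein-coding genes, were Clock (Pearson r = 0.998), Kcnip3 (0.993), Zfp738 (0.993), Agpat3 (0.992) and Usp16 (0.992). This is a description over 6 libraries that share the same extreme library. Kcnip3 had the widest range of these, with 93.5, 64.8 and 158.6 scaled reads in YAP and 8.86, 6.28 and 571.9 in BrafYAP.

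The cells were labelled as thyroid tumor cells, and the lineage factors of the follicular cell were present in every library. Pax8 had 11574, 12288 and 14663 scaled reads in YAP and 12475, 7225 and 5188 in BrafYAP (adjusted p = 0.320 by limma). Nkx2-1 had 159 to 302 in YAP and 195 to 741 in BrafYAP, and Foxe1 24.7 to 72.2 and 41.0 to 94.1. Of the defining follicular markers, Tshr was at 0 in BrafYAP replicates 1 and 2. Of the 4 lineage factors 0 passed the adjusted threshold, and Hhex alone was higher at an unadjusted p under 0.05, with 252, 543 and 310 scaled reads in YAP and 1020, 1075 and 5345 in BrafYAP (log2 difference 2.37, SE 0.68, adjusted p = 0.134). That difference was 1.58 without BrafYAP replicate 6 (adjusted p = 0.107), and the median of the 4 turned from 0.46 to -0.02. The list of 8 follicular markers includes these 4 factors, Tg, Slc5a5 and Tshr. In it 0 were lower at an unadjusted p under 0.05 with all libraries (median -0.14). Without BrafYAP replicate 6, 3 were lower (median -0.86), and 1 of them, Tshr, passed the adjusted threshold.

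The levels of the synthesis genes relative to Pax8 differed between libraries much as the levels themselves did. Per 1000 scaled reads of Pax8, Tg had 575, 104 and 1137 in YAP and 10.3, 7.17 and 3785 in BrafYAP. Tshr had 12.4, 5.08 and 1.76 in YAP and 0, 0 and 94.8 in BrafYAP, and Slc5a5 had 0.843 to 1.49 in YAP and 0.888, 0.326 and 109.5 in BrafYAP. Iyd was 392, 196 and 244 in YAP and 62.3, 32.3 and 404 in BrafYAP, so that on this scale BrafYAP replicate 6 was above the YAP libraries and the groups overlapped.

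Markers of other cell types moved with BrafYAP replicate 6. The summed parathyroid markers (Pth, Gcm2 and Casr) were 26.7, 922 and 29.9 scaled reads in YAP and 0, 2.35 and 5118 in BrafYAP, nearly all of it Pth, the parathyroid hormone gene, with Gcm2 at 0 in 4 libraries, at 12.2 in YAP replicate 2 and at 1.78 in BrafYAP replicate 6. The 5 C-cell markers, genes of the calcitonin-producing cells of the thyroid, summed to 1203, 2613 and 82.4 in YAP and 51.0, 80.1 and 7244 in BrafYAP. The 6 endothelial markers summed to 723, 3485 and 366 in YAP and 327, 152 and 2565 in BrafYAP, with 0 of the 6 at 0 reads in any library. Thus BrafYAP replicate 6, the library with the highest Tg, Slc5a5 and Tshr, also had the highest parathyroid and C-cell sums. Within YAP, replicate 2 had the highest of these sums and the lowest Tg. The part of these cells in the levels of the synthesis genes was not tested.

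Macrophage markers were lower in BrafYAP than in YAP without passing the adjusted test. All 10 were lower in BrafYAP at an unadjusted p under 0.05 and 9 of 10 did not overlap, with a median log2 difference of -2.09. Without BrafYAP replicate 6, 9 of these 10 markers were lower at an unadjusted p under 0.05 (median -2.03). Their sums were 734244, 629670 and 219777 scaled reads in YAP and 214710, 152664 and 58329 in BrafYAP, and C1qa, C1qb, C1qc and Fcgr1, whose products are complement subunits and an Fc receptor, had the greatest differences (-2.89 to -2.74). The 6 epithelial markers summed to 153899, 283533 and 493935 in YAP and 567360, 359481 and 209862 in BrafYAP, with Epcam, an epithelial adhesion gene, alone at an unadjusted p under 0.05 (log2 difference 2.10, adjusted p = 0.159 by limma). The part of these cells in the differences of the synthesis genes was not tested.

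**Figure D4:**
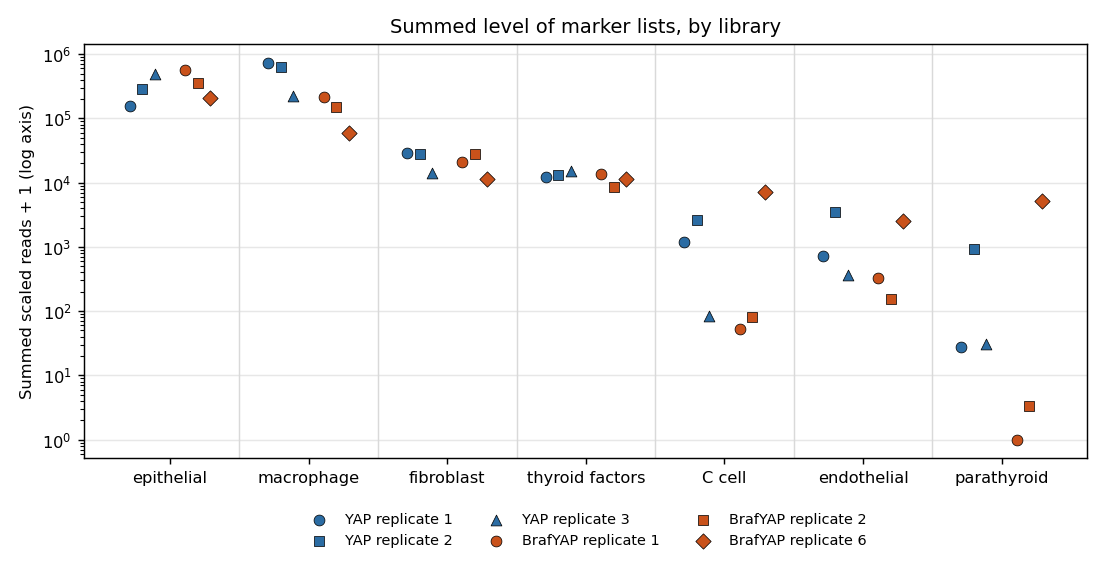
Summed scaled reads plus 1 (log axis) of marker lists, 1 symbol per library, where thyroid factors are Nkx2-1, Pax8, Foxe1 and Hhex. BrafYAP replicate 6 (orange diamonds) has the highest C-cell and parathyroid sums (7244, mostly Chga, and 5118) and the lowest macrophage sum (58329). The thyroid factor sums lie between 8544 and 15315 in all libraries, but their members do not move together. In BrafYAP replicate 6 the sum combines the lowest Pax8 (5188) and the highest Hhex (5345) of all libraries.

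Markers of the remaining lists passed the adjusted test in 0 cases. At an unadjusted p under 0.05 there were 0 of 4 C-cell markers tested (median log2 difference 0.10), 0 of 6 endothelial markers (0.21) and 0 of 1 parathyroid marker (-1.55). Of 7 fibroblast markers, Lum and Dcn, matrix proteoglycans, were higher and Col1a1 lower at an unadjusted p under 0.05 (median log2 difference 0.71). Of 6 T-cell markers tested 0 did so (median -1.74), and of 5 erythroid markers 0 (median -1.64). With BrafYAP replicate 6 left out, markers lower at an unadjusted p under 0.05 numbered 3 of 6 for T cells (median -2.66), 4 of 5 for erythroid cells (-2.93), 1 of 4 for C cells (-1.95), 1 of 6 for endothelial cells (-1.23) and 1 of 1 for parathyroid (Pth, -5.37), so that the C-cell and endothelial medians turned sign. In the skeletal muscle and adipocyte lists 1 gene each reached the minimum mean, and 1 of these, Acta1, was lower at an unadjusted p under 0.05.

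The rest of the hormone pathway was described from lists of other genes, and 0 genes of any list passed the adjusted threshold. Of 8 other genes of iodide handling and hormone synthesis, 1 was higher at an unadjusted p under 0.05 and 0 were lower (median log2 difference -0.34). That gene, Kcnq1, a potassium channel subunit, had 8.22, 75.8 and 35.0 scaled reads in YAP and 394, 380 and 1761 in BrafYAP, without overlap (log2 difference 4.45, SE 0.91, adjusted p = 0.0902 by limma). Without BrafYAP replicate 6, 3 of the 8 were higher and 2 lower at an unadjusted p under 0.05 (median -0.57), and Kcnq1 differed by 3.72 (adjusted p = 0.0923). Kcnq1 was thus higher in each BrafYAP library than in every YAP library, whereas Tshr was so in 1.

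Downstream of the receptor, 2 of 14 genes of TSH receptor signaling were higher and 1 lower at an unadjusted p under 0.05 (median -0.25). Adcy3, an adenylyl cyclase, had 31.8, 61.3 and 74.3 scaled reads in YAP and 216, 311 and 385 in BrafYAP (log2 difference 2.47, SE 0.45, adjusted p = 0.0821 by limma). Prkar2b, a regulatory subunit of protein kinase A, differed by 1.54, and Pde8b, a phosphodiesterase that degrades cyclic AMP, by -1.64. The receptor did not share an order over the libraries with Adcy3 or Prkar2b. BrafYAP replicates 1 and 2 had no reads of Tshr and more of Adcy3 and Prkar2b than any YAP library. Pde8b, like Tshr, lay below every YAP library in these replicates (16.7 and 6.64 scaled reads), but also in BrafYAP replicate 6 (5.67), where Tshr was highest.

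Of the genes of hormone export, activation and inactivation, 7 of 12 were tested, and 1 was higher and 2 were lower at an unadjusted p under 0.05 (median 0.27). Those without overlap were Thrb, a thyroid hormone receptor (log2 difference 2.77), and Slc16a10, an amino acid and hormone transporter (-1.46). Of the 8 genes of thyroglobulin uptake and proteolysis, 1 was higher and 2 lower (median -0.27), the lower ones being the lysosomal proteases Ctss (-2.15, adjusted p = 0.133) and Lgmn (-1.27, adjusted p = 0.117), both also well expressed in macrophages. Of the 9 folding factors of the endoplasmic reticulum that handle thyroglobulin, 1 was higher and 0 lower (median 0.07), and the most abundant, P4hb and Calr, differed by 1.10 and -0.41 (adjusted p = 0.353 and 0.407). Leaving out BrafYAP replicate 6 gave 1 higher and 1 lower gene in the export list, 0 and 0 in the folding list (median -0.17), and 2 higher and 1 lower in the signaling list, whose median went to 0.0046.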

How the data were processed

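Groups were taken from GEO's titles. RNA was amplified for 12 cycles (SMART-Seq) before 8 library PCR cycles, and sequenced as 50-nt read pairs. Per the submitters' processing notes and the study's methods, the authors used bcl2fastq 2.2 and STAR 2.6.1d (mm10), and quantification was by Partek E/M with Ensembl release 95. They deposited TPM values (abundance relative to gene length and library total) with 0.0001 added, in 1 table of 35027 genes with 0 columns of no sample. Column totals are 181217.6. Low values (under 200 reads) multiplied by the genomic span, introns included, lay within 0.05 of whole multiples of 1 step per library in 71.7 to 76.0% of cases, against 21.7 to 25.2% with the exonic length. The deposited TPM were therefore divided by the span, which gives genes with long introns low values. Estimated reads are (value - 0.0001) × span / step, with spans from GENCODE M21 (mm10), which holds 34709 of the symbols, 34645 at 1 locus. Scaled reads return these to the authors' scaling between libraries. Depth was 26.2 to 36.9 M estimated reads per library. Limits of a count of 0 (3 reads) cover counting error only, since amplified reads are not independent molecules.

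Because TPM are not counts, tests used limma 3.58.1 (R 4.3.3) with a mean-variance trend and no covariate, two-sided, on log2(scaled reads + 1). Genes needed a mean of 10 scaled reads or more (16834 genes), and p-values were adjusted over all of them by Benjamini-Hochberg, with a threshold of 0.05. On this scale differences of low genes are understated. The labels give no batch, and p-values measure only the spread between these libraries.

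The 9 genes and all lists were chosen with earlier results of these data known. Named beside them were genes overlapping them, Yap1 and Braf, list genes with an unadjusted p under 0.05 and no overlap between groups (at most 4 per list by size, otherwise the 2 most abundant), and the 5 most similar genes (mean of at least 50 scaled reads). Other named genes (Pax8, Nkx2-1, Foxe1, Acta1, Pth, Gcm2) were chosen after their values were seen. Alternatives were other pseudocounts, minimum means, scalings and weights, the deposited values as they stand, voom, protein-coding genes only, a replicate block, and each of 6 libraries left out in turn. The labels describe a pooling of tumors that the study's methods do not mention, and give the start of dox as the methods do but earlier than 1 passage of the study's results, and the labels were followed. Promoters are from RefSeq (GRCm38.p6).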

Additional observations from a re-analysis of the deposited data

How the results depend on the processing

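With 3 libraries per group and 1 library far from the rest, the number of synthesis genes past the adjusted threshold depended on how much that library counted. Equal weights gave 0 and array weights (limma, 0.221 for BrafYAP replicate 6 and 4.81 for YAP replicate 3) gave 5 (Tg, Duoxa2, Iyd, Dio1 and Tshr), where 27.6% of all genes passed, and 5 rather than 1 at an unadjusted p under 0.05. Duoxa2, 1 of the 5, reached the minimum mean only through BrafYAP replicate 6. Leaving out each library gave 0 to 1 genes past the threshold, 0 to 4 at an unadjusted p, and medians of -3.78 to -1.41. The 1 was Tshr and the 4 were reached without BrafYAP replicate 6, and the 0 at an unadjusted p arose without YAP replicate 1 or YAP replicate 3. The median of -2.13 was -0.996 with a pseudocount of 10, -1.001 on the deposited values (2 genes tested) and -3.88 with array weights. Over all settings Tg ranged from -6.69 to -0.41, Dio1 from -5.14 to -0.39 and Tshr from -6.58 to -0.996, negative throughout. Over all genes, 45 passed with a pseudocount of 10, 62 with quantile normalization, 20 without trend, 18 of the deposited values, 4649 with array weights and 0 to 142 with a library left out.

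Duoxa2 turned from -0.18 to 0.64 with a pseudocount of 10 and to 0.15 with quantile normalization, and ranged from -0.73 to 1.09 with a library left out, being positive without YAP replicate 3 (0.83), BrafYAP replicate 1 (1.09) or BrafYAP replicate 2 (1.09). Slc5a5 turned from 0.88 to -0.60 with array weights and ranged from -1.28 to 2.42 with a library left out. Iyd and Duox1 stayed negative in every setting that tested them (-2.99 to -1.41 and -1.68 to -0.36). The cause of these turns was not tested.

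The titles give both groups replicate numbers 1 and 2, but same-numbered libraries did not deviate together from their group means (r = -0.03 and 0.05 over 16834 genes). With so few libraries per group, this check cannot show whether same-numbered samples share more than a number. With the replicate block 4 synthesis genes were lower at an unadjusted p under 0.05, where 8.39% of all genes were, 0 passed the adjusted threshold, the median was -2.95, and Slc5a5 was -1.39. That fit takes nothing from YAP replicate 3 or BrafYAP replicate 6, whose numbers occur once. Depth limits Slc26a4, Duox2 and Duoxa2, which had 0 to 3 reads in most libraries.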
